A study of Mus musculus with 10 samples.

Results

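Ribosome biogenesis is the making of ribosomes, most of which takes place in the nucleolus. RNA polymerase I transcribes a long precursor of the ribosomal RNAs, small nucleolar RNA-protein particles (snoRNPs) modify it, and a large set of assembly factors cuts and folds it into a small (40S) and a large (60S) subunit. The pathway scales with cell growth, is a well-known target of the transcription factor Myc, and is known in blood as the one disturbed in Diamond-Blackfan anaemia and dyskeratosis congenita. The genes described here were a list of 43 nucleolar factors chosen by name, with earlier results of these data known. Every one of the 43 was found by its symbol among the 51456 genes of the deposited table, and all 43 passed the filter of at least 1 FPKM in at least 5 of 10 libraries, as did 13431 genes overall. FPKM counts fragments per kilobase of gene, relative to the size of the library.

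The libraries came from mouse bone marrow cells sorted by surface proteins. The 5 libraries labelled HSC are haematopoietic stem cells of wild-type C57BL/6J mice, sorted as LSK cells (lineage-negative with Sca-1 and c-Kit) that have CD150 and lack CD48. The 5 labelled LSC are leukaemia stem cells of mice whose acute myeloid leukaemia the fusion gene MLL-AF9 drives, sorted for c-Kit, CD16/32 and CD34 among cells without Sca-1 or lineage markers. The genotype label reads wild-type for both groups, and how MLL-AF9 was introduced, the age and sex of the mice, and any pooling are not stated in the sources. Disease and sort gate differ at once between the groups, so their effects cannot be told apart. The labels do not say that libraries came from separate mice, so p-values cover the spread among libraries alone, which may be technical.

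The genes of the sorted proteins ran partly against the labels. All 3 listed genes of proteins that the HSC gate requires (Ly6a, Slamf1 and Kit) were higher in the LSC-labelled libraries without overlap. Kit belongs to both gates, and Cd48 was not among the listed genes. Of the 4 genes listed for the LSC gate, Kit and Cd34 were higher and Fcgr3 and Fcgr2b lower. Whether the columns carry the intended labels could not be settled from the files. Ly6a, which encodes Sca-1, stood at 0.920 ± 0.917 FPKM (SD, n = 5) among HSC-labelled libraries against 74.2 ± 24.8 among LSC-labelled ones, Slamf1, which encodes CD150, at 0.494 ± 0.270 and 2.85 ± 0.319, and Fcgr3, which encodes CD16, at 371 ± 117 and 197 ± 20.7, while Kit (21.5 ± 8.36 and 61.6 ± 2.99) and Cd34 (27.7 ± 13.3 and 91.3 ± 3.60) were higher in the LSC-labelled ones. Every direction below is therefore between libraries as labelled. Markers of other cells differed as well, and their part in the results below was not tested. All 5 osteoblast and stroma markers (summed level 1.81 to 7.39 FPKM among HSC-labelled libraries against 205 to 844 among LSC-labelled ones), all 5 megakaryocyte and platelet markers tested (16.6 to 255 and 745 to 1212), 4 of 5 basophil and mast cell markers (22.4 to 124 and 763 to 1740.5), 5 of 7 erythroid markers (73.5 to 1551 and 1309 to 2816), all 5 neutrophil markers (555 to 3117 and 1663 to 19099.8), 3 of 4 B lymphoid markers (31.5 to 51.1 and 36.6 to 60.5) and both T and NK cell markers tested (0.962 to 3.82 and 7.61 to 13.2) were the higher among LSC-labelled libraries. Of 5 monocyte and macrophage markers 3 were lower (147 to 230 and 97.4 to 126), and no marker was at 0 in every library of a group. By mean FPKM in the HSC-labelled and then the LSC-labelled libraries, the 2 most abundant genes of these lists were Bglap (0.237 and 128) and Col1a1 (0.416 and 88.2) of osteoblasts and stroma, Pf4 (68.1 and 678) and Ppbp (0.814 and 183) of megakaryocytes, Prss34 (10.8 and 710.2) and Mcpt8 (18.2 and 392) of basophils, and Car1 (223 and 899) and Car2 (76.3 and 889) of erythroid cells. They were S100a8 (898 and 5239) and S100a9 (334 and 2742) of neutrophils, Cd79a (1.08 and 7.53) and Cd79b (41.1 and 34.1, not called) of B cells, Trbc2 (0.701 and 3.88) and Ncr1 (0.445 and 3.62) of T and NK cells, and Ly86 (64.6 and 32.2) and Csf1r (50.3 and 40.1, not called) of monocytes. In sorted bulk samples, fewer cells of a type and less RNA per cell cannot be told apart. Read steps in the low values put the depth at 26320000 to 54920000 reads for the HSC-labelled and 33300000 to 69980000 for the LSC-labelled libraries.

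Most of the 43 genes were higher in the LSC-labelled libraries, and none was lower. Limma on log2(FPKM + 1) called 35 higher at an adjusted p under 0.05, against a background of 27.2% of all genes tested, and 0 lower against 13.8% (41% in either direction). Rrs1 had the only fitted change below 0, and 0 members were lower at an unadjusted p under 0.05. For 21 of the 43, all of them called, every LSC-labelled value lay above every HSC-labelled value, against 20% of all genes tested, no member had them all below (9.8% of all genes), and for the other 14 called members the groups overlapped. The median log2 fold change was 0.51 over the 43 and 0.11 over all genes tested. Part of the count rested on the scaling between libraries. Scaling by median of ratios, normalizing by quantiles, and removing GC and length trends each brought the median of all genes to -0.01, -0.02 and -0.02, in that order. The members called higher then numbered 25, 27 and 25, the background was 20.7%, 20.7% and 20.5%, the median was 0.37, 0.41 and 0.33, and none was lower. Under the deposited values and all 3 of these scalings together, 24 members were called higher.

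**Figure D1:**
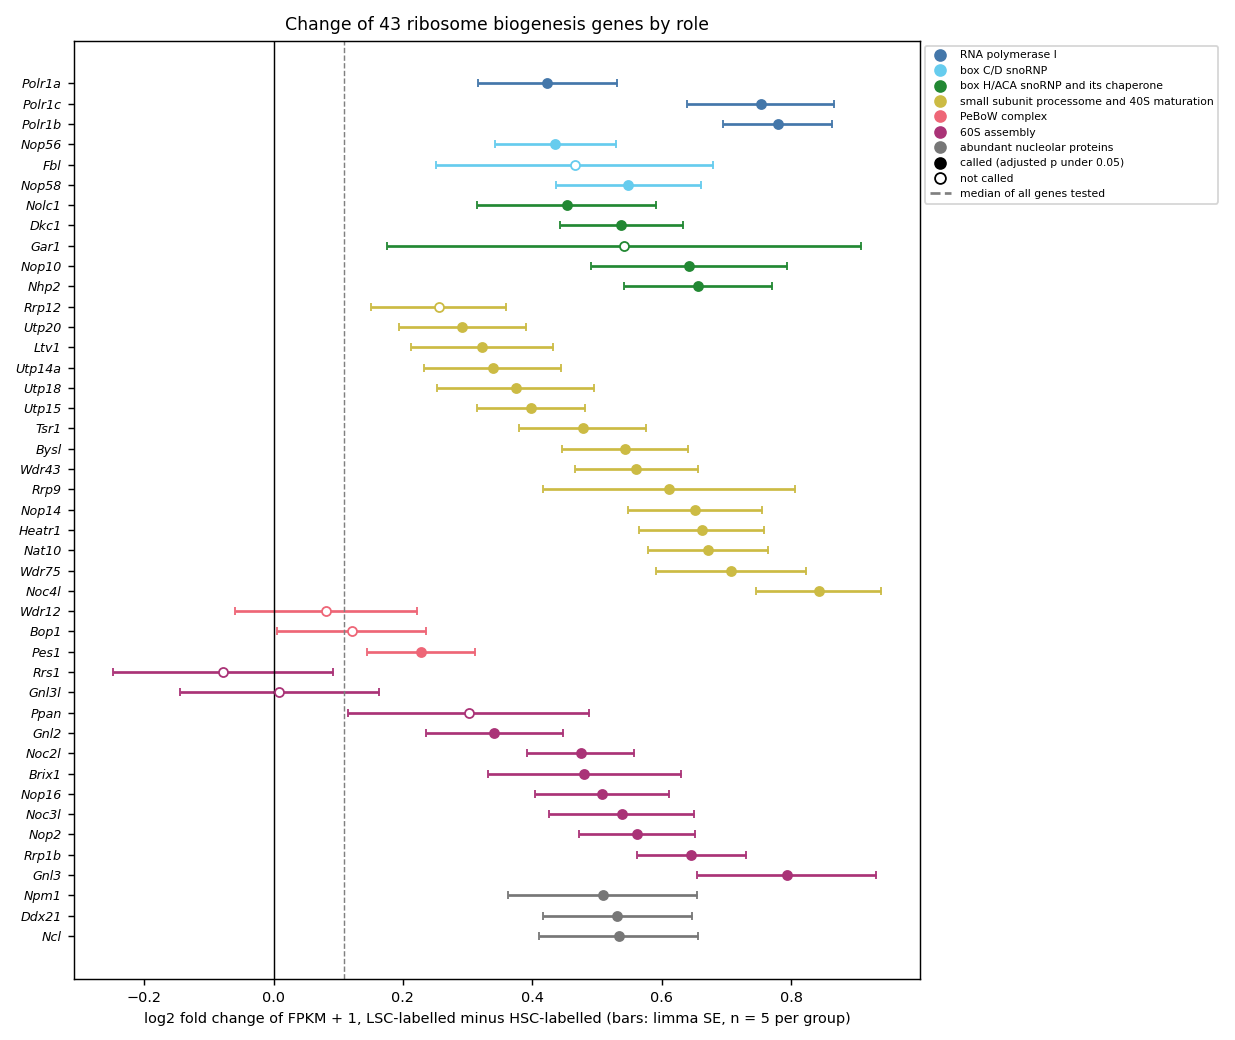
Log2 fold change of FPKM + 1 between the LSC-labelled and HSC-labelled libraries (x axis, bars are the limma SE, n = 5 per group) for the 43 genes (y axis), coloured by role, with open points for genes that limma did not call. The PeBoW genes, Rrs1 and Gnl3l sit near 0 or the dashed median of all genes tested (0.11), and 35 filled points lie to the right of 0.

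The genes covered a wide span of levels. Mean FPKM in the HSC-labelled libraries ran from 3.14 for Noc3l to 510.0 for Npm1, and in the LSC-labelled libraries from 5.02 for Noc3l to 725 for Npm1. Exons of 18 members overlap a gene on the other strand, among them Tsr1, Noc2l, Utp14a and Bysl, and whether counting used strand is not given, so reads of such partners cannot be told apart. The thinnest value, Noc3l in one library, rested on an estimated 347 reads. Summed over the 43, the level was 1911 to 2372 FPKM across HSC-labelled and 2631 to 3237 across LSC-labelled libraries, so the sums did not overlap. That was 0.385% to 0.487% of the FPKM sum of a library in the first group and 0.550% to 0.659% in the second.

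RNA polymerase I, which makes the ribosomal RNA precursor, had all 3 of its listed subunits higher, against 27.2% of all genes tested. Polr1b, the second-largest subunit, stood at 17.8, 19.3, 17.3, 17.5 and 20.7 FPKM in HSC-labelled replicates 1 to 5 and at 29.6, 34.1, 31.8, 36.2 and 30.8 in LSC-labelled replicates 1 to 5. The gene lies on the plus strand at chr2:129100995-129126594 (GRCm38, mm10). The groups were well apart (log2 fold change 0.78, SE 0.0836, limma adjusted p = 3.77e-05). Polr1c, a subunit shared with RNA polymerase III, stood at 31.5, 39.3, 31.6, 28.3 and 37.1 FPKM against 47.2, 66.1, 58.7, 54.8 and 59.1. Here too every LSC-labelled value was the higher (log2 fold change 0.75, SE 0.114, adjusted p = 0.00037 by limma). Polr1a, the largest subunit, which holds the catalytic centre, changed less, from 5.70, 7.17, 5.42, 5.38 and 6.95 FPKM to 7.15, 8.54, 8.26, 9.499 and 9.23. The groups met at HSC-labelled replicate 2 and LSC-labelled replicate 1 (log2 fold change 0.42, SE 0.108, limma adjusted p = 0.00875), and without HSC-labelled replicates 3 and 4 the adjusted p was 0.052.

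The box C/D snoRNP places methyl groups on ribosomal RNA, with fibrillarin (Fbl) as the enzyme and Nop56 and Nop58 as its scaffold. Nop58 stood at 16.3, 19.1, 18.5, 16.1 and 18.9 FPKM among HSC-labelled libraries against 20.03, 30.1, 26.9, 28.4 and 27.9 among LSC-labelled ones. It was higher with no overlap (log2 fold change 0.55, SE 0.112, limma adjusted p = 0.00246). Nop56 stood at 95.02, 86.1, 94.1, 89.7 and 110.9 FPKM against 110.2, 137, 129.9, 139.9 and 128. Only HSC-labelled replicate 5 reached the lowest LSC-labelled value (log2 fold change 0.44, SE 0.0934, limma adjusted p = 0.00332), and the adjusted p was 0.074 once GC and length trends were removed. Fbl was not called (log2 fold change 0.47, SE 0.214, limma adjusted p = 0.105), at 42.3, 49.4, 27.8, 30.7 and 48.7 FPKM against 68.1, 44.0, 69.6, 37.0 and 58.4. Its values fell into a higher and a lower set within each group, and the sets of the 2 groups overlapped. Without LSC-labelled replicate 4 its adjusted p was 0.041.

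The box H/ACA snoRNP turns uridine into pseudouridine. Its core is dyskerin (Dkc1), the enzyme mutated in X-linked dyskeratosis congenita, with Nhp2, Nop10 and Gar1, and Nolc1 (Nopp140) is a chaperone of both kinds of snoRNP. Nhp2 stood at 157, 189, 149, 122 and 174 FPKM among HSC-labelled libraries against 226, 258, 268, 236 and 251 among LSC-labelled ones (log2 fold change 0.66, SE 0.115, limma adjusted p = 0.000961). Nop10 stood at 219, 214, 138, 136 and 198 FPKM against 246, 299, 299.7, 259.6 and 285 (log2 fold change 0.64, SE 0.151, limma adjusted p = 0.00559). Neither gene overlapped between groups, and nor did Dkc1, which went from 83.9 ± 10.1 to 122 ± 8.77 FPKM (SD, n = 5 each). Nolc1 was called at 42.7, 57.4, 45.9, 38.8 and 54.7 FPKM against 50.6, 67.8, 76.1, 60.8 and 74.5, with overlapping groups (log2 fold change 0.45, SE 0.139, limma adjusted p = 0.0225). Its call was lost with median-of-ratios scaling (adjusted p = 0.069), with GC and length trends removed (0.141) and without HSC-labelled replicates 3 and 4 (0.112). Gar1 ranged from 13.6 to 48.0 FPKM among HSC-labelled libraries against from 23.5 to 64.3 among LSC-labelled ones, and was not called (log2 fold change 0.54, SE 0.367, limma adjusted p = 0.263). Its log2 fold change was 0.32 without HSC-labelled replicate 4, 0.02 without HSC-labelled replicates 3 and 4, and 1.01 with a call without HSC-labelled replicates 1 and 2 (limma adjusted p = 0.0375).

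Among 15 factors of the small subunit processome and of 40S maturation, 14 were higher (93.3%, against 27.2% of all genes tested). For 9 of them every LSC-labelled value lay above every HSC-labelled value, against 20% of all genes tested. Under median-of-ratios scaling, quantile normalization and GC and length trends removed, 9, 10 and 10 of the 15 were higher. That was 60%, 66.7% and 66.7%, against 20.7%, 20.7% and 20.5% of all genes tested. Noc4l, which pairs with Nop14 in the processome, had the largest log2 fold change of the 43. It stood at 45.1, 55.7, 48.8, 42.4 and 54.9 FPKM among HSC-labelled libraries against 81.5, 90.3, 97.2, 81.7 and 94.6 among LSC-labelled ones, a ratio of means of 1.80 (log2 fold change 0.84, SE 0.097, limma adjusted p = 5.89e-05). Its lowest LSC-labelled value lay well above its highest HSC-labelled one. The gene lies on the minus strand at chr5:110648418-110653417 (GRCm38, mm10). Wdr75, of the t-UTP complex that binds the precursor as it is transcribed, stood at 15.2, 19.2, 15.5, 15.3 and 16.1 FPKM against 20.4, 30.5, 28.4, 29.6 and 27.8. The groups were apart, with LSC-labelled replicate 1 closest to the HSC-labelled values (log2 fold change 0.71, SE 0.116, limma adjusted p = 0.000631). Other members without overlap were Nat10, which acetylates 18S ribosomal RNA (13.9 ± 1.34 to 22.7 ± 1.97 FPKM, SD, n = 5 each), the t-UTP proteins Heatr1 (8.87 ± 1.10 to 14.6 ± 1.04), Utp15 (15.9 ± 0.985 to 21.4 ± 1.81) and Wdr43 (46.2 ± 4.07 to 68.8 ± 7.24), Nop14 itself (13.5 ± 1.76 to 21.7 ± 2.06), and Bysl (16.9 ± 1.44 to 25.2 ± 3.02) and Tsr1 (11.7 ± 0.690 to 16.8 ± 2.16) of later 40S steps. Utp14a (20.5 ± 1.66 to 26.3 ± 3.54 FPKM), Utp18 (17.6 ± 2.94 to 23.0 ± 2.88), Utp20 (4.06 ± 0.571 to 5.17 ± 0.357), the late factor Ltv1 (36.4 ± 4.36 to 45.8 ± 5.40) and the U3 snoRNP protein Rrp9 (36.5 ± 6.85 to 57.3 ± 15.6) were called with overlapping groups and adjusted p between 0.025 and 0.0347, and each lost its call with median-of-ratios scaling. Rrp12, which helps export of both subunits, was not called at 11.6, 12.5, 13.8, 10.4 and 14.2 FPKM against 16.1, 13.5, 16.1, 13.3 and 16.4 (log2 fold change 0.26, SE 0.104, limma adjusted p = 0.0716), and its adjusted p without HSC-labelled replicate 5 was 0.0495.

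**Figure D2:**
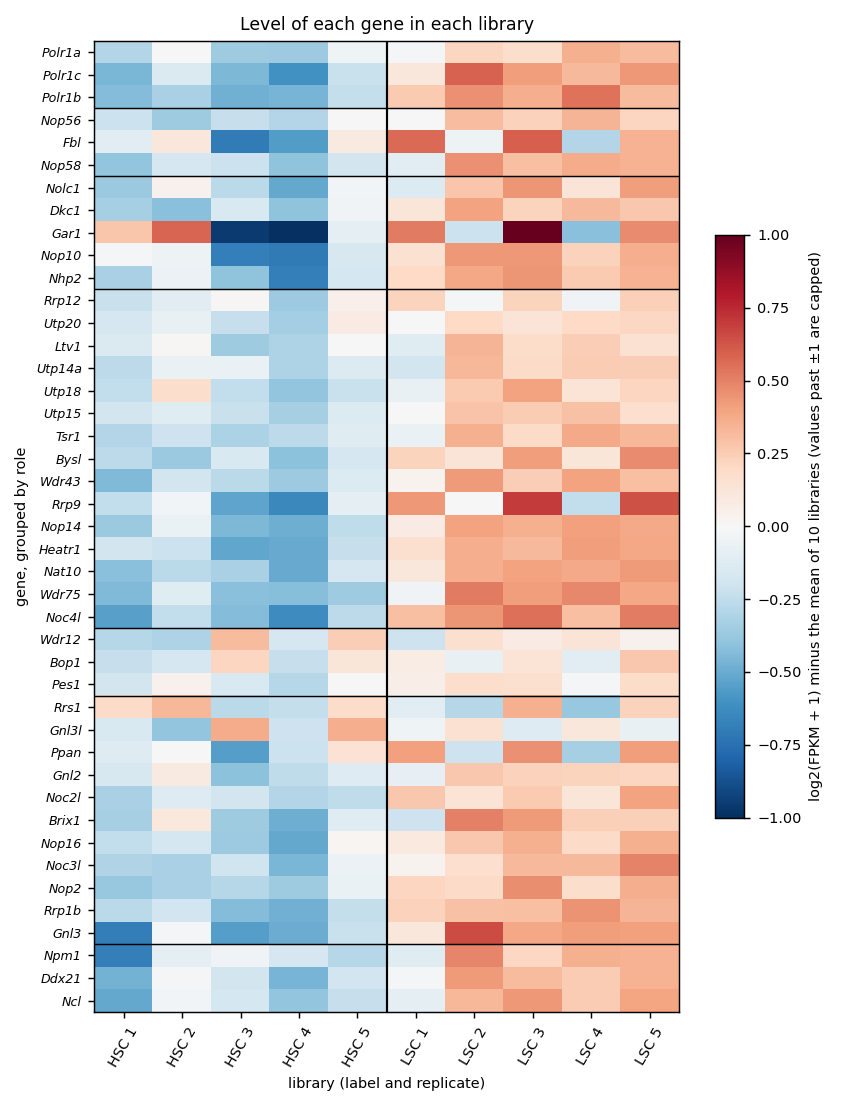
Level of each of the 43 genes (rows, grouped by role) in each library (columns), as log2(FPKM + 1) minus the gene's mean over the 10 libraries. Most rows are lower in all HSC-labelled columns, LSC-labelled replicate 1 is the palest LSC-labelled column, and Fbl, Gar1, Rrp9, Rrs1 and Ppan are low in HSC-labelled replicates 3 and 4 and LSC-labelled replicates 2 and 4.

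The PeBoW complex, made of Pes1, Bop1 and Wdr12, processes the precursor on the 60S side. Of its 3 genes 1 was called higher (33.3%, near the 27.2% of all genes tested). Pes1 stood at 48.6, 57.1, 49.8, 45.3 and 55.4 FPKM among HSC-labelled libraries against 58.2, 62.6, 62.0, 54.7 and 63.0 among LSC-labelled ones. Its call was close to the threshold (log2 fold change 0.23, SE 0.084, limma adjusted p = 0.0489), and the adjusted p was 0.349 with median-of-ratios scaling and 0.949 with GC and length trends removed. Wdr12 was not called at 15.1, 14.9, 23.5, 16.5 and 22.3 FPKM against 16.04, 20.98, 19.8, 20.5 and 19.2. The LSC-labelled values lay inside the range of the HSC-labelled ones (log2 fold change 0.08, SE 0.141, limma adjusted p = 0.678), and the sign turned with median-of-ratios scaling (-0.05), with quantile normalization (-0.05) and without HSC-labelled replicates 1 and 2 (-0.09). Bop1, at 58.5 ± 8.93 and 63.5 ± 6.99 FPKM (SD, n = 5 each), was not called either (adjusted p = 0.428 by limma).

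Of 11 further 60S assembly factors, 8 were higher (72.7%, against 27.2% of all genes tested). For 6 of them every LSC-labelled value was above every HSC-labelled one, against 20% of all genes tested. Under each of the 3 other scalings 6 of the 11 were higher (54.5%), against 20.7%, 20.7% and 20.5% of all genes tested. Gnl3, the nucleolar GTPase nucleostemin known from stem and tumour cells, stood at 46.1, 73.8, 50.8, 52.8 and 64.2 FPKM among HSC-labelled libraries against 81.1, 118, 98.5, 100.7 and 100.01 among LSC-labelled ones. The gene lies on the minus strand at chr14:31012433-31019152 (GRCm38, mm10). All 5 LSC-labelled values were the higher (log2 fold change 0.79, SE 0.138, limma adjusted p = 0.000922). Rrp1b stood at 13.5, 14.4, 12.0, 11.6 and 13.9 FPKM against 19.6, 20.5, 20.7, 22.9 and 21.2 (log2 fold change 0.65, SE 0.0838, limma adjusted p = 0.000134). Also apart between groups were Nop2, which methylates 28S ribosomal RNA (45.7 ± 4.26 to 68.0 ± 6.14 FPKM, SD, n = 5 each), Nop16 (55.9 ± 7.84 to 79.5 ± 6.04), Noc2l (9.76 ± 0.607 to 14.0 ± 1.21) and Noc3l (3.14 ± 0.430 to 5.02 ± 0.722). Gnl2 (43.3 ± 5.67 to 55.0 ± 5.28 FPKM) and Brix1 (29.6 ± 5.09 to 41.8 ± 7.62) were called with overlap and lost the call with median-of-ratios scaling (adjusted p of 0.097 and 0.067).

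Gnl3l, the closest relative of nucleostemin, did not pass the test. It stood at 12.5, 10.4, 18.4, 12.0 and 18.3 FPKM among HSC-labelled libraries against 13.5, 15.6, 12.8, 15.3 and 13.3 among LSC-labelled ones, with group means of 14.3 and 14.1 (log2 fold change 0.01, SE 0.154, limma adjusted p = 0.970). HSC-labelled replicates 3 and 5 were the highest of all 10, and the sign of the change turned under 10 of 22 alternatives. Rrs1, which brings the 5S particle to the 60S precursor and was picked out after its values were seen, stood at 44.3 ± 8.42 and 42.1 ± 9.66 FPKM (SD, n = 5 each) and was not called (log2 fold change -0.08, SE 0.170, limma adjusted p = 0.744). Ppan was not called at 34.5 ± 6.18 and 43.4 ± 11.04 FPKM (adjusted p = 0.219 by limma).

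The nucleolar protein genes Npm1, Ncl and Ddx21 were all 3 higher, against 27.2% of all genes tested. Npm1, the histone-binding scaffold nucleophosmin that is often mutated in human myeloid leukaemia, stood at 374, 563, 586, 534 and 492 FPKM among HSC-labelled libraries against 553, 843, 692, 768 and 766 among LSC-labelled ones. LSC-labelled replicate 1 lay within the HSC-labelled range and the other four above it (log2 fold change 0.51, SE 0.146, limma adjusted p = 0.0163), and the adjusted p was 0.110 with median-of-ratios scaling and 0.111 with GC and length trends removed. Npm1 has processed pseudogene copies, whose share of its reads is not known here. Ncl, nucleolin, stood at 70.4, 99.1, 89.2, 76.4 and 85.9 FPKM against 94.6, 127, 137, 121 and 133 (log2 fold change 0.53, SE 0.123, limma adjusted p = 0.00489). Ddx21, an RNA helicase that works with RNA polymerase I and snoRNPs, stood at 20.2, 28.1, 24.8, 20.2 and 24.7 FPKM against 28.1, 38.5, 35.5, 34.1 and 36.3 (log2 fold change 0.53, SE 0.115, limma adjusted p = 0.00349). In both genes LSC-labelled replicate 1 alone was not above the highest HSC-labelled value, that of replicate 2.

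**Figure D3:**
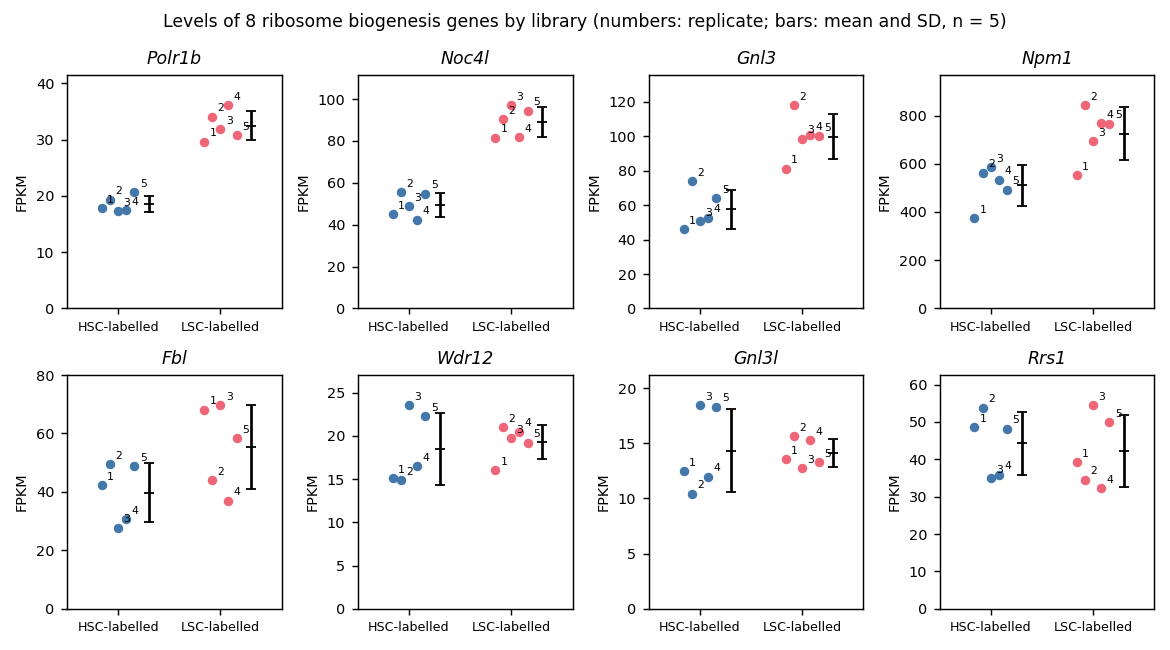
FPKM (y axes, from 0) of 8 genes in each HSC-labelled and LSC-labelled library, numbered by replicate, with the mean and SD (n = 5) as bars. Polr1b, Noc4l and Gnl3 are apart between groups, Npm1 overlaps through LSC-labelled replicate 1, and Fbl, Wdr12, Gnl3l and Rrs1 overlap broadly.

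The libraries of a group were not alike. LSC-labelled replicate 1 held the lowest of the 5 LSC-labelled values for 31 of the 43 genes (72.1%, against 26.3% of all genes tested), and HSC-labelled replicate 4 held the lowest HSC-labelled value for 23 (53.5%, against 32.4%). For Fbl, Gar1, Rrp9, Rrs1 and Ppan, LSC-labelled replicates 2 and 4 lay below the other three of their group, and HSC-labelled replicates 3 and 4 below the other three of theirs. These 5 are 11.6% of the members, near the 9.23% of all genes tested with the same split, so it is not particular to them. All genes with it had a median transcript GC content of 56.1% and the others of 48.5%.

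The balance between genes was compared for 25 pairs within a complex or family, as differences of log2(FPKM + 1) within each library. Limma called 6 of them after adjustment over the 25 pairs. Polr1a fell relative to Polr1b by 0.36 on the log2 scale (SE 0.0735, limma adjusted p = 0.008) and relative to Polr1c by 0.33 (SE 0.081, limma adjusted p = 0.0144), while the ratio of Polr1b to Polr1c was not called (difference 0.03, 95% interval -0.18 to 0.23). Gnl3 rose relative to both relatives. The log2 ratio of Gnl2 to Gnl3 was -0.39 ± 0.182 among HSC-labelled libraries against -0.84 ± 0.0858 among LSC-labelled ones (SD, n = 5 each), with no overlap (limma adjusted p = 0.008). The log2 ratio of Gnl3 to Gnl3l was 1.95 ± 0.483 and 2.73 ± 0.156, with overlap (adjusted p = 0.0144 by limma). Within the t-UTP complex, Heatr1 rose relative to Utp15 by 0.26 (SE 0.070, limma adjusted p = 0.0144) and Utp15 fell relative to Wdr75 by 0.31 (SE 0.0784, limma adjusted p = 0.0144). An exact permutation test over the 10 libraries, whose smallest possible p is 0.00794, called 4 of the 6 at an adjusted p of 0.0496, leaving out Gnl3 to Gnl3l (0.0850) and Utp15 to Wdr75 (0.0661). All 6 were also called by limma under the 3 other scalings, an alternative chosen after seeing the data. A factor common to a library nearly cancels in such a difference, so median-of-ratios scaling could hardly have changed these calls. For Gnl2 to Gnl3 the difference was -0.45 as deposited, -0.45 with that scaling and -0.51 with GC and length trends removed.

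No pair was called within the box C/D and H/ACA snoRNPs or PeBoW on the deposited values. The ratio of Nop56 to Nop58 differed by -0.11 on the log2 scale (95% interval -0.31 to 0.08), and by -0.27 with a call once GC and length trends were removed (limma adjusted p = 0.0463). The ratio of Nhp2 to Nop10 differed by 0.01 (-0.20 to 0.23) and that of Bop1 to Wdr12 by 0.04 (-0.22 to 0.30), while pairs with Gar1 had intervals as wide as -0.92 to 0.91.

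**Figure D4:**
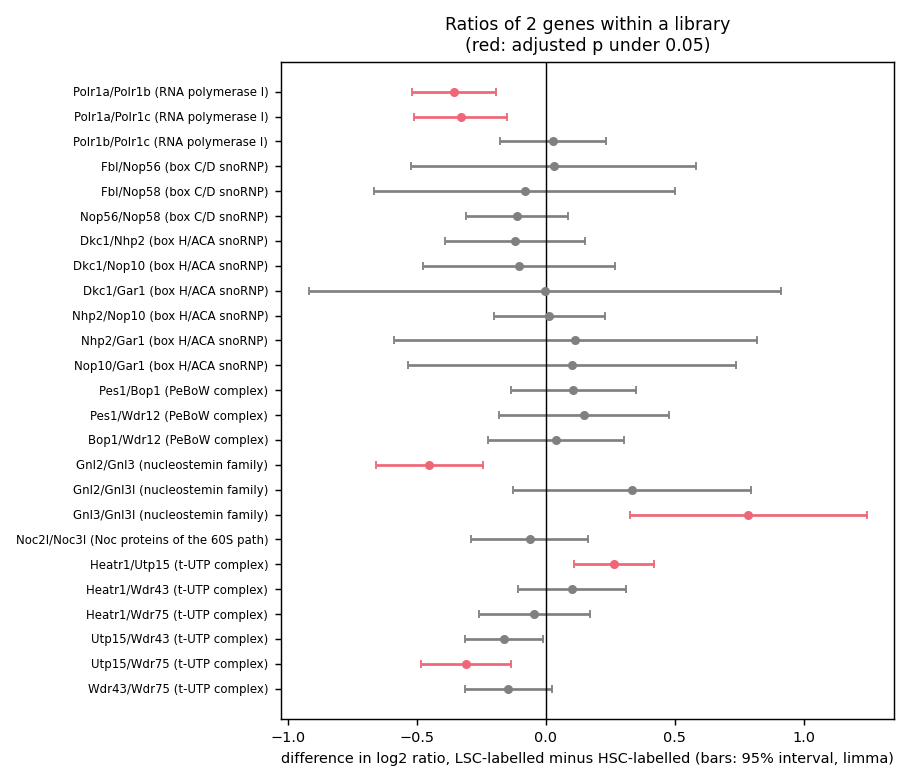
Difference between the LSC-labelled and HSC-labelled libraries in the log2 ratio of 2 genes (x axis, bars are the 95% interval from limma, n = 5 per group) for 25 pairs within a complex or family (y axis). The 6 pairs called by limma all include Polr1a, Gnl3 or Utp15, and the bars of the pairs with Gar1 are among the widest and cross 0.

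The rest of the pathway, from lists of 143 further ribosome biogenesis genes, was described by counts. Limma called 82 of 141 tested genes higher (58.2%, against 27.2% of all genes tested) and 1 lower, and left 58 uncalled. For 60 of the 141 every LSC-labelled value lay above every HSC-labelled value, against 20% of all genes tested. The median log2 fold change of the 141 was 0.35 against 0.11 over all genes. Under the 3 other scalings 61, 62 and 62 of them were higher and 2, 2 and 3 lower. The shares higher were 43.3%, 44.0% and 44.0%, against 20.7%, 20.7% and 20.5% of all genes tested. By part of the pathway, 24 of 39 further 40S factors (61.5%), 26 of 49 further 60S factors (53.1%) and 11 of 18 further RNA polymerase I genes (61.1%) were higher. So were 8 of 12 snoRNP assembly genes (66.7%) and 13 of 23 genes of the RNA exosome and ribosomal RNA nucleases (56.5%). Rcl1, a 40S factor that acts with the GTPase Bms1, went from 34.9 ± 5.70 to 72.1 ± 5.64 FPKM (SD, n = 5 each, log2 fold change 1.04), and Utp4, another t-UTP protein, from 27.0 ± 4.25 to 47.6 ± 3.39. Ddx24, a DEAD-box helicase, went from 26.6 ± 2.28 to 47.6 ± 5.88 FPKM, and Nip7, of 60S assembly, from 20.7 ± 2.86 to 33.3 ± 4.31. Polr2l and Polr2h, small subunits shared by the RNA polymerases, went from 18.4 ± 2.57 to 33.9 ± 1.72 and from 46.2 ± 8.04 to 78.5 ± 5.79 FPKM. Ruvbl1, an ATPase of snoRNP assembly, went from 79.4 ± 5.57 to 132 ± 9.55 FPKM, Snu13, which binds box C/D RNAs, from 64.2 ± 6.62 to 103 ± 3.17, Exosc7, of the exosome ring, from 25.3 ± 2.19 to 41.7 ± 2.11, and Rpp38, of RNase P and MRP, from 9.11 ± 1.53 to 15.5 ± 2.61. These 10 genes were all called by limma with no overlap between the groups. The sole gene lower on the deposited values, named after its values were seen, was the 40S factor Rrp36, at 37.9, 27.7, 32.3, 29.2 and 45.2 FPKM among HSC-labelled libraries against 20.96, 17.6, 22.6, 15.6 and 20.3 among LSC-labelled ones (log2 fold change -0.79, SE 0.144, limma adjusted p = 0.00127). Its groups did not overlap either.

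**Figure D5:**
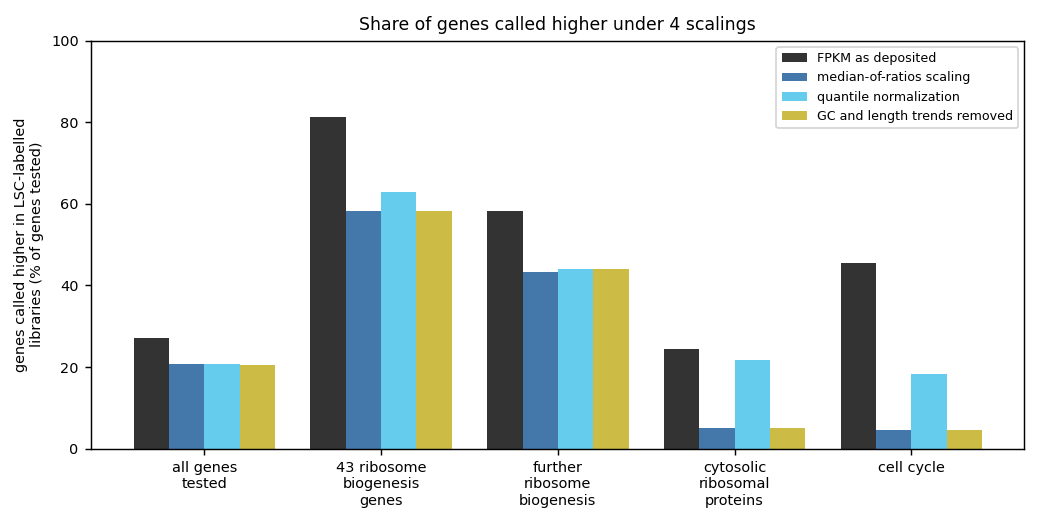
Share of tested genes called higher in the LSC-labelled libraries (y axis, % of genes tested in a set) for all genes, the 43 ribosome biogenesis genes, further ribosome biogenesis genes, cytosolic ribosomal proteins and cell-cycle genes, under the deposited FPKM values and 3 other scalings. The 43 genes stand at 81.4% as deposited and at 58.1%, 62.8% and 58.1% under the others, against 27.2%, 20.7%, 20.7% and 20.5% of all genes.

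The proteins of the ribosome itself were counted in the same way. Of 78 cytosolic ribosomal protein genes limma called 19 higher (24.4%, against 27.2% of all genes tested) and left 59 uncalled. The median log2 fold change of the 78 was 0.20. Under median-of-ratios scaling, quantile normalization and GC and length trends removed, 4, 17 and 4 of them were higher. That was 5.13%, 21.8% and 5.13%, against 20.7%, 20.7% and 20.5% of all genes tested. The summed level of the 78 genes was 40402 to 51833 FPKM among HSC-labelled libraries against 43334 to 54092 among LSC-labelled ones. Near-identical pseudogene copies make single values uncertain. The 2 called genes of this list with the largest changes were Rps10, from 4.04 ± 0.828 to 6.62 ± 1.09 FPKM (SD, n = 5 each), and Rps21, from 233 ± 84.7 to 339 ± 61.1. Of 22 cell-cycle genes 10 were higher (45.5%, against 27.2% of all genes tested) and 12 not called. Under the same scalings 1, 4 and 1 were higher. Those shares of 4.55%, 18.2% and 4.55% lay below the 20.7%, 20.7% and 20.5% of all genes tested. Of the cell-cycle genes, Cdc6, which loads the replicative helicase, went from 15.9 ± 3.56 to 27.8 ± 2.90 FPKM, and Mcm2, of that helicase, from 92.8 ± 17.0 to 124 ± 11.2. Myc, the growth regulator known to activate many ribosome biogenesis genes, went from 136 ± 29.5 to 245 ± 21.3 FPKM (SD, n = 5 each, log2 fold change 0.87, limma adjusted p = 0.00111), its relative Mycn from 2.48 ± 2.52 to 8.26 ± 1.599 and their partner Max from 6.54 ± 1.09 to 10.7 ± 1.18.

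Promoters were searched for 3 motifs, among them the letters that Myc and Max are known to bind. RefSeq windows of 250 bases before to 50 bases after the start (GRCm38.p6, mm10) were at hand for 36 members in 40 windows, with Fbl, Npm1, Bop1, Gnl2, Gnl3l, Rrp12 and Rrs1 not among them. The E-box CACGTG, which reads the same on both strands, was in 7 of the 40 windows (17.5%), against 10.3% of the windows of genes tested and 7.15% of all windows. The ETS core CCGGAAG, searched on both strands, was in 14 (35.0%), against 18.6% and 8.86%. The NRF1 motif, searched on both strands, was in 0, against 2.14% of the windows of genes tested. The 7 E-boxes are shown because they are the sites the search found, each 5′ to 3′ on the gene's strand with the E-box in capitals and, in brackets, where its first base lies from the start. All 7 genes were called higher on the deposited values, as were 33 of the 36 members with a window, and 3 of the 7 were called with median-of-ratios scaling, as were 25 of the 36.

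Utp18 (-20): agcgccggtCACGTGgcttgcggc
Nop2 (-60): tccctggatCACGTGtgttccggt
Pes1 (2): taggcagggCACGTGcgggaggaa
Wdr43 (17): ccgggcgaaCACGTGgctgccgcg
Tsr1 (24): cttggtgcaCACGTGgactgcaga
Ltv1 (28): ctgtggaccCACGTGtggagctgc
Utp20 (37): cactaactaCACGTGaggaaaa

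Of these 7, Utp18 and Nop2 carry the E-box before the start and the others after it. Nop2 was the one of the pair without overlap between the groups, and the 250 bases before its start lie on the plus strand at chr6:125131633-125131882. The E-box stands in capitals, and an ETS core follows it within the same stretch.

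Nop2: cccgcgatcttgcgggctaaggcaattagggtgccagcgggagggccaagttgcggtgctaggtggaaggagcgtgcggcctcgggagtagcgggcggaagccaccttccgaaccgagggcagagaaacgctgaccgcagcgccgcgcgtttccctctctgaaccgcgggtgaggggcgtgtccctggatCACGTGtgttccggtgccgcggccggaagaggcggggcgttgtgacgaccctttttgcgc

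A match of letters is a description and shows no binding. Noc4l, Polr1b and Gnl3, with the largest log2 fold changes, had windows without the E-box.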

How the data were processed

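RNA of sorted mouse bone marrow cells was extracted with miRNeasy, amplified by the Geo-seq protocol and made into libraries with TruePrep, per the labels' protocols. The submitters' processing notes name HTSeq, DESeq2, Cufflinks 2.1.1, Bowtie 0.12.9 and the mm10 genome without saying what each did. The authors deposited 1 table of FPKM values, of 51456 genes in 10 libraries. Values summed to 472651 to 499850 FPKM per library, and 51246 genes matched GENCODE M21. Steps in the low values were whole reads, within 0.05, for 85.06% to 90.99% of them, which gave estimated depths and was too few for a count test.

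Groups followed the labels, 5 libraries each. The 13431 genes that reached 1 FPKM in 5 or more libraries were tested with limma 3.58.1 on log2(FPKM + 1), adjusted by Benjamini-Hochberg over all of them at a threshold of 0.05. Fold changes on this scale understate changes of low genes. Log2 ratios within 25 gene pairs were tested with limma and an exact two-sided permutation test. Members and lists were chosen with earlier results of these data known. Values in every library are given for the 2 called members with the largest absolute log2 fold change and the member with the smallest in each role, and for Fbl, Ncl and Npm1, and the rest by means or ranges. In each further list the 2 called genes with the largest change and a mean of at least 1 FPKM are named, and in lists of other cell types the 2 most abundant. Further members were described after their values were seen. The procedure was tested on simulated data with 100 changed genes. It recovered 81% of them at a 2-fold and 57% at a 1.5-fold change, with 8% of calls false in each. The 100 changed genes were far fewer than the 5513 genes called here, and the adjusted p depends on that number. These rates therefore need not hold for the calls on the real data. An uncalled gene may still differ. Alternatives were the pseudocount, filter, scaling, GC and length trends, replicate block, mean trend, array weights and libraries left out.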

Additional observations from a re-analysis of the deposited data

Results flagged for a closer look

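In 7 of the 86 groups of 5 values (43 genes in 2 groups), 1 library stood apart from the other four by Dixon's criterion, which chance passes in about 1 group in 20. Some were high HSC-labelled values. Utp18 was 22.6 FPKM in HSC-labelled replicate 2, against 14.9 to 17.0 in the others, and Wdr75 was 19.2 there, against 15.2 to 16.1. Nop2 was 53.1 FPKM in HSC-labelled replicate 5, against 42.6 to 45.5. The others were low values of LSC-labelled replicate 1. Wdr75 was 20.4 FPKM there, against 27.8 to 30.5, Nop14 18.1, against 22.0 to 23.0, Nat10 19.2, against 23.0 to 24.0, and Gnl2 45.7, against 56.4 to 58.9.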

How the results depend on the processing

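Over 22 alternatives, the members called higher numbered 25 to 35 and none was called lower, and 23 members were called higher in every alternative that tested them. Leaving out 1 library at a time gave 26 to 35, no filter on low values 26, and leaving out HSC-labelled replicates 3 and 4 together 25. The further ribosome biogenesis genes called higher numbered 58 to 91. Called pairs numbered 4 to 7 over 17 alternatives, of which the 3 scalings were chosen after seeing the data. Genes called lower over the whole table, 1859 on the deposited values, numbered 1195 with a filter at 5 FPKM, 2833 with quantile normalization and 3006 after removal of GC and length trends. Higher calls were 66.3% of all calls as deposited, 50.8% with median-of-ratios scaling, 49.6% with quantile normalization and 47.7% after that removal. Wdr12 turned sign with median-of-ratios scaling (-0.0528), quantile normalization (-0.0453) and HSC-labelled replicates 1 and 2 left out (-0.0911). Gnl3l turned sign under the 3 scalings (-0.12, -0.12 and -0.16), with array weights (-0.0454), with HSC-labelled replicates 1 and 2 left out (-0.17) and when single libraries were left out (-0.0886 to 0.103). The cause was not tested. Same-numbered replicates 1 to 5 correlated at 0.107, 0.1203, -0.29, 0.225 and 0.0519, in that order. The highest correlation with another number was 0.0634, 0.396, 0.235, 0.0747 and 0.157. The labels do not say whether the numbers pair the libraries. These values cannot decide it, as replicates 1 and 4 correlated most with their own number and replicates 2, 3 and 5 did not. With a replicate block, 34 members were called higher and 6 pairs were called. Among all genes tested, 3405 were then called higher and 1750 lower. With 5 libraries a group and FPKM values alone, counting error could not be modelled.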
